A study of Homo sapiens with 6 samples.

Results

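The integrin subunits described here are 10 genes, ITGA2, ITGA3, ITGA5, ITGA6, ITGAV, ITGB1, ITGB4, ITGB5, ITGB6 and ITGB8, picked as a list of gene symbols. They had 23 of the 47225 probes on an Illumina BeadChip expression array, on which every probe is a fixed sequence carried by many beads and its signal is the mean brightness of those beads. The RNA came from HCT116, an established human colorectal carcinoma line. In 3 samples the cells carried a short hairpin RNA against TCF7L1 (shTCF7L1), and in 3 samples a control hairpin (shCtrl); the series calls the 3 of each condition biological replicates, and the labels do not say whether the cells of a condition were 1 clone or a pool. TCF7L1 is a DNA-binding protein of the TCF/LEF family, which acts in Wnt signalling, and the question of the series is which transcripts differ when it is knocked down.

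Integrins are cell surface receptors made of 1 alpha and 1 beta subunit. The alpha subunit largely sets which matrix protein is bound, while the beta tail binds talin, kindlin and other proteins that link the receptor to actin, or, for ITGB4, to keratin filaments. In gut epithelium, pairs of ITGB1 with ITGA2, ITGA3 or ITGA6 bind collagen and laminin, ITGA6 with ITGB4 anchors cells to the basement membrane in hemidesmosomes, and ITGAV with ITGB5, ITGB6 or ITGB8 binds vitronectin, fibronectin or latent TGF-beta.

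Between 34.0% and 36.8% of probes were above background per array, meaning a detection p-value, which compares a probe with the negative control beads, below 0.01. All arrays lay on 1 chip with the arrays of a group at neighbouring positions, so group and position cannot be told apart. On the second principal component, 13.6% of the variance, shTCF7L1 replicate 3 lay at -24.9 and the other shTCF7L1 arrays at 12.5 and 13.9. The TCF7L1 probe was dim: its bead signal was 29.3, 32.4 and 25.4 in shTCF7L1, with 0 of 3 arrays above background, against 45.1, 35.8 and 40.6 in shCtrl, with 2 of 3 above background. The shTCF7L1 values all lay below the shCtrl values. The probe was above background on fewer than the 3 arrays required of tested probes, so its p comes from the probe fit with it added. Its normalized log2 means were 4.34 in shTCF7L1 and 4.87 in shCtrl. With the shTCF7L1 arrays held at no less than the detection limit, the mean was 1.02-fold lower, sampling error left out. The difference did not pass (limma adjusted p = 0.0872, adjusted over the probes). All 6 epithelial markers examined, EPCAM, CDH1, KRT8, KRT18, KRT19 and CLDN7, were above background on all 6 arrays. Of these KRT8 (log2 -0.82, SE 0.24) and CLDN7 (log2 -0.88, SE 0.25) fell in shTCF7L1. Of 4 intestinal markers CDX2 was above background on every array and CDX1, LGR5 and VIL1 on none.

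Of the 10 integrin subunits, 8 had a probe above background and were tested, and ITGB6 and ITGB8 had none. ITGA6 rose in shTCF7L1 cells, 1.52-fold, and no subunit fell. The other 7 tested subunits did not pass the threshold of an adjusted p below 0.05, with log2 differences between 0.20 and 0.53. So 1 of 8 was higher and 0 were lower, in limma with Benjamini-Hochberg adjustment over 10470 genes, where 7.85% of all genes were called higher and 7.11% lower. At an unadjusted limma p below 0.05 the counts were 4 higher and 0 lower. Over all 10470 genes, 3125 reached that level in either direction. All 8 log2 differences lay above 0, against 52.0% of all genes, and their median was 0.44, against 0.02 over all genes. The subunits, and the gene lists below, had been chosen with earlier results of these data known. Such contrasts with all genes are therefore descriptions and not independent support. In 4 of the 8, ITGA5, ITGA6, ITGAV and ITGB5, every shTCF7L1 value was above every shCtrl value, which held for 18.1% of all genes.

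**Figure D1:**
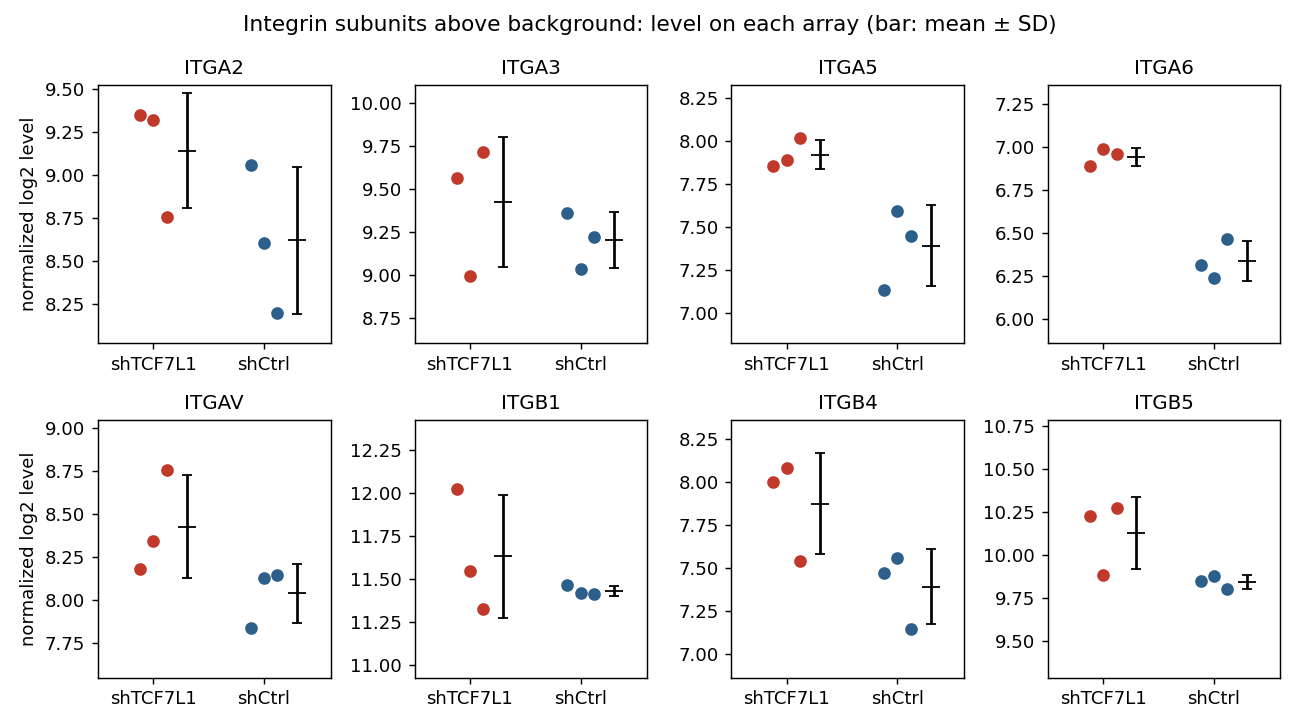
Normalized log2 level (vertical axis, the same span of 1.5 log2 units in each panel) of the 8 integrin subunits above background, with 1 point per array, shTCF7L1 on the left, shCtrl on the right, and the mean ± SD beside the points (n = 3 each). The groups are separate in ITGA5, ITGA6, ITGAV and ITGB5 and overlap in ITGA2, ITGA3, ITGB1 and ITGB4.

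Of the laminin-binding alpha subunits, ITGA6 is the one that pairs with either ITGB1 or ITGB4. Its brightest probe (ILMN_2359287) had normalized log2 levels of 6.89, 6.99 and 6.96 in shTCF7L1 and 6.32, 6.24 and 6.47 in shCtrl. The arrays of each group lay close together, with no overlap between the groups. The means were 6.95 ± 0.05 in shTCF7L1 and 6.34 ± 0.12 in shCtrl (SD, n = 3 each), and differed by 0.60 on the log2 scale (SE 0.19, 95% interval 0.20 to 1.01, limma adjusted p = 0.0426). An exact permutation test (2-sided) gave p = 0.1, and no split of 3 against 3 arrays can give less. The call ended when any single array was left out (limma adjusted p of 0.0642 to 0.121, log2 0.55 to 0.67), with the mean of the ITGA6 probes (limma adjusted p = 0.0513) and with the replicate number as a block (limma adjusted p = 0.0629). A second ITGA6 probe, ILMN_2267488, was near background: it had log2 levels of 5.12, 5.03 and 5.06 in shTCF7L1 and 4.88, 4.62 and 4.49 in shCtrl. It was above background on 3 of 3 shTCF7L1 arrays and 1 of 3 shCtrl arrays, so it passed the detection filter through the group in which it was higher. The p of a subunit's brightest probe is adjusted over genes and that of any further probe over probes. Its log2 difference of 0.41 (SE 0.20) did not pass (limma adjusted p = 0.189). The third ITGA6 probe, ILMN_1687974, was above background on no array.

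The sequences before 3 start sites are shown for the subunit that rose (ITGA6), for the one of next smallest p (ITGA5) and for one whose probe was not above background (ITGB6). Each is the 250 bases before the start, 5′ to 3′ on the gene's strand, from RefSeq promoters of build GRCh38.p14: chr2:172427086-172427335 (plus strand) for the more upstream of 2 ITGA6 starts, chr12:54419267-54419516 (minus strand) for ITGA5 and chr2:160200273-160200522 (minus strand) for ITGB6. Capitals mark the GC box GGGCGG on either strand.
ITGA6: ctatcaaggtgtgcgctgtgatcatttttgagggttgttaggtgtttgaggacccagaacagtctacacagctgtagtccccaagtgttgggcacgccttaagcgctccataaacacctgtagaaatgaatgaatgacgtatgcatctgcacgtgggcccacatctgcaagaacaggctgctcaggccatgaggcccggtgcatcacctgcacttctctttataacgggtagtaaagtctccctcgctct
ITGA5: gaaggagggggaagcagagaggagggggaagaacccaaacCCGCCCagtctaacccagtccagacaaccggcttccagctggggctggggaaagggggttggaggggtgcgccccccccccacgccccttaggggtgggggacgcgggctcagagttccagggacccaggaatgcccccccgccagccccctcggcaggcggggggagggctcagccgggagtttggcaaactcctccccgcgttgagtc
ITGB6: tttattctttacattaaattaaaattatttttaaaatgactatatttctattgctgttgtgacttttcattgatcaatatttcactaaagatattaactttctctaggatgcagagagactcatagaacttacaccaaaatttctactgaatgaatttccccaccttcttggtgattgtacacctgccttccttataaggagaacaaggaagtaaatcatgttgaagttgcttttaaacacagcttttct
The ITGA5 window was 70% G and C and held 1 GC box, and that of ITGB6 was 30% G and C with none. The ITGA6 window shown was 50.8% G and C with none, whereas the window of the other ITGA6 start, directly after it and not shown, was 71.6% G and C with 3. RefSeq gave 13 such windows for 8 of the 10 subunits, ITGA3 and ITGB4 being the 2 not matched. Of these 13 windows 7 held GGGCGG, as did 42.6% of all 35116 promoter windows. The letters CTTTGA, the core of sites bound by TCF/LEF proteins, occurred on either strand in 0 of the 13, against 11.2% of all windows. The AP-1 motif TGANTCA occurred in 0 of the 13, against 6.57% of all windows. Such matches are a description of these letters in this window and not of binding.

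ITGA3, the other laminin-binding alpha subunit, pairs with ITGB1. Its log2 levels were 9.56, 8.99 and 9.71 in shTCF7L1 and 9.36, 9.03 and 9.22 in shCtrl. The lowest and the highest of the 6 values were both shTCF7L1 arrays. The shTCF7L1 arrays had an SD of 0.38 (n = 3), more than the log2 difference of 0.22 (SE 0.22, 95% interval -0.25 to 0.69), which did not pass (limma adjusted p = 0.551). A further ITGA3 probe, ILMN_1654074, was above background on no array.

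ITGA2, the collagen-binding alpha subunit that pairs with ITGB1, had log2 levels of 9.35, 9.32 and 8.76 in shTCF7L1 and 9.06, 8.60 and 8.20 in shCtrl. It had the widest spread among the shCtrl arrays of the 8 tested subunits (SD 0.43, n = 3), and the groups overlapped. The log2 difference was 0.52 (SE 0.24, limma adjusted p = 0.161). Leaving out shCtrl replicate 1 gave 0.74, leaving out shCtrl replicate 3 gave 0.31 and leaving out shTCF7L1 replicate 3 gave 0.71, with no call in these fits.

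ITGA5 and ITGAV recognise the RGD sequence of fibronectin, vitronectin and other ligands. ITGA5, the alpha subunit of the main fibronectin receptor with ITGB1, had log2 levels of 7.86, 7.89 and 8.02 in shTCF7L1 and 7.14, 7.59 and 7.45 in shCtrl. The groups did not overlap. The means were 7.92 ± 0.08 in shTCF7L1 and 7.39 ± 0.23 in shCtrl (SD, n = 3 each), and the log2 difference of 0.53 (SE 0.20, 95% interval 0.10 to 0.95) did not pass (limma adjusted p = 0.0852). With the authors' processed values it passed, at a log2 difference of 0.64 (limma adjusted p = 0.0395), and in the other alternatives its adjusted p lay above 0.05.

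ITGAV, the alpha subunit that pairs with ITGB1, ITGB5, ITGB6 and ITGB8, had log2 levels of 8.18, 8.34 and 8.76 in shTCF7L1 and 7.84, 8.13 and 8.15 in shCtrl. The groups were separated by a narrow gap, between shTCF7L1 replicate 1 and shCtrl replicate 3. The log2 difference was 0.39 (SE 0.21, 95% interval -0.06 to 0.84, limma adjusted p = 0.234) and did not pass.

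ITGB1, the beta subunit shared by the largest number of alpha partners, had 2 probes above background that ordered the shTCF7L1 arrays differently. The brighter probe, ILMN_1723467, had log2 levels of 12.03, 11.55 and 11.33 in shTCF7L1 and 11.47, 11.42 and 11.41 in shCtrl. The shCtrl arrays lay close together (SD 0.03, n = 3), whereas the shTCF7L1 arrays were spread (SD 0.36, n = 3) and included both the highest and the lowest of the 6 values. The log2 difference of 0.20 (SE 0.21, limma adjusted p = 0.573) fell to 0.01 without shTCF7L1 replicate 1. The other probe, ILMN_1714820, had log2 levels of 9.99, 10.23 and 10.36 in shTCF7L1 and 9.52, 10.01 and 9.71 in shCtrl. On it shTCF7L1 replicate 3 was the highest array and replicate 1 the lowest of its group, the reverse of the brighter probe. The log2 difference there was 0.45 (SE 0.21, limma adjusted p = 0.169), and neither probe passed. A further 2 ITGB1 probes were above background on no array.

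ITGB4, whose long tail binds the plakin proteins of hemidesmosomes and which pairs with ITGA6 alone, also had 2 probes above background. The brighter, ILMN_2334210, had log2 levels of 8.0, 8.08 and 7.54 in shTCF7L1 and 7.47, 7.56 and 7.14 in shCtrl, with shTCF7L1 replicate 3 just below shCtrl replicate 2. Its log2 difference was 0.48 (SE 0.21, limma adjusted p = 0.141). The other, ILMN_2317543, had log2 levels of 6.90, 7.16 and 6.93 in shTCF7L1 and 6.52, 6.60 and 5.94 in shCtrl, with no overlap. It showed the greatest difference of the 13 integrin probes past the filter (log2 0.64, SE 0.22), and did not pass (limma adjusted p = 0.0622). The partners ITGA6 and ITGB4 thus had similar log2 differences, 0.60 and 0.48, of which that of ITGA6 passed; the difference between them was not tested.

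ITGB5, which pairs with ITGAV in the vitronectin receptor, had 3 probes above background. The brightest, ILMN_1668374, had log2 levels of 10.23, 9.89 and 10.27 in shTCF7L1 and 9.85, 9.88 and 9.80 in shCtrl. shTCF7L1 replicate 2 lay just above the highest shCtrl array, while the other shTCF7L1 arrays were higher. The log2 difference was 0.28 (SE 0.20, limma adjusted p = 0.356), and those of the other probes were 0.41 (SE 0.22, limma adjusted p = 0.223) and 0.39 (SE 0.21, limma adjusted p = 0.247). The other two ITGB5 probes were above background on no array.

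ITGB6 and ITGB8, the beta subunits that with ITGAV release active TGF-beta from its latent complex, had 1 probe each, above background on 0 of 6 arrays. The bead signal of ITGB6 was 24.3, 17.6 and 24.5 in shTCF7L1 and 21.7, 23.4 and 23.2 in shCtrl. That of ITGB8 was 33.7, 33.1 and 28.6 in shTCF7L1 and 28.8, 24.0 and 29.8 in shCtrl. Neither was well above background in any sample, so no fold is given, and whether these probes read all transcripts of the genes was not tested.

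**Figure D2:**
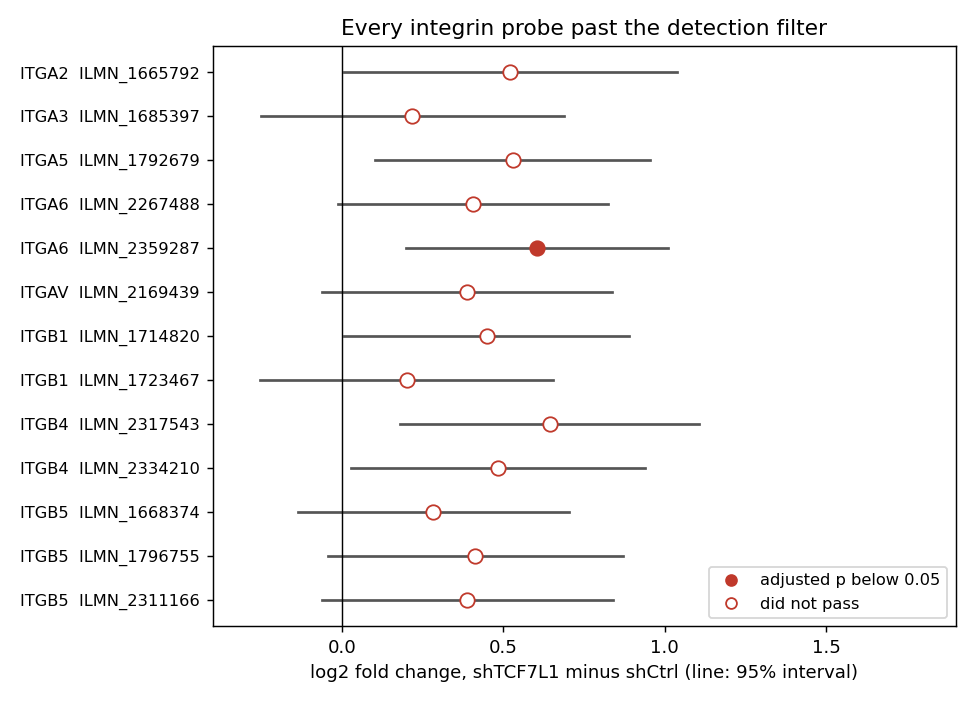
Log2 fold change (shTCF7L1 minus shCtrl, horizontal axis) of the 13 integrin probes past the detection filter, with the 95% interval as a line; the filled point has an adjusted p below 0.05 over all probes. The points lie between 0.20 and 0.64, and ILMN_2359287 of ITGA6 is the filled one; ILMN_2267488 of ITGA6 passed the filter through its shTCF7L1 arrays.

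Over probes, 13 of the 23 integrin probes passed the detection filter and the 10 others were above background on no array. Of the 13, 12 were above background on all 6 arrays, and these 12 log2 differences were above 0; the exception, ILMN_2267488, had passed through the group in which it was higher and is counted in what follows. Of the 13, 1 was called (limma, Benjamini-Hochberg over 16835 probes, of which 13% were called, 6.46% higher and 6.58% lower). At an unadjusted limma p below 0.05 there were 6. The share of all probes at that level was not computed, and over genes 3125 of 10470 reached it in either direction. In 7 of the 13 the groups did not overlap, against 32.4% of all probes. Probes of 1 gene share their RNA samples and their target, so they are not replicates. The median log2 difference of the 13 was 0.41, against 0.01 over all kept probes. The 10 probes off the filter had bead signals of 17.6 to 38.0 in shTCF7L1 and 18.0 to 34.1 in shCtrl, and log2 differences of -0.07 to 0.14.

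The 3 genes whose pattern over the 6 arrays was most like that of ITGA6 were ZNF524, a zinc finger gene, STAT3, a transcription factor activated by cytokine receptors, and LGALS3BP, a secreted galectin-binding glycoprotein. Pearson's r with ITGA6 was 0.996, 0.995 and 0.994 in that order. With 3 arrays of each group such a likeness reflects mainly the step between the groups, and all 3 genes were higher in shTCF7L1 with no overlap, by 0.63, 0.96 and 1.12 on the log2 scale.

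**Figure D3:**
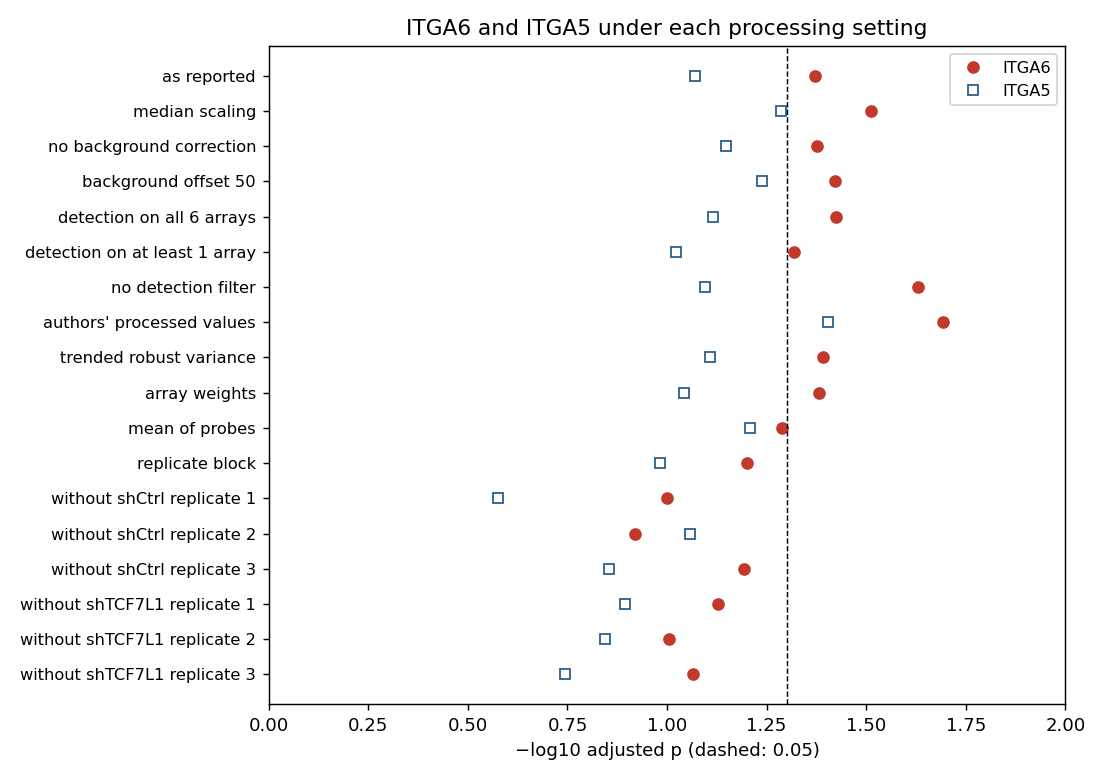
−log10 of the limma adjusted p (horizontal axis, further right is smaller p) of ITGA6 (filled circles) and ITGA5 (open squares) as reported and under each of 17 alternatives (vertical axis); the dashed line is 0.05. ITGA6 lies left of the line in 8 alternatives, among them all 6 that leave out an array, and ITGA5 right of it only with the authors' processed values.

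Of the 16 other human integrin subunits, 4 passed the detection filter. The median of these 4 was -0.08. ITGAX, an alpha subunit known mainly from myeloid cells, rose, with log2 levels of 5.23, 5.45 and 5.67 in shTCF7L1 and 4.74, 4.85 and 4.52 in shCtrl. ITGAX was above background on 3 of 3 shTCF7L1 arrays and 0 of 3 shCtrl arrays. It thus passed the detection filter only through the group in which it was higher. Its p (limma adjusted p = 0.0218) does not allow for that selection. The increase is given as at least 1.53-fold. This is the mean in shTCF7L1 against the detection limit or the probe's own signal on the shCtrl arrays, whichever was higher. With detection required on all 6 arrays ITGAX was not tested. The call ended without shCtrl replicate 1 or 3, without shTCF7L1 replicate 2 or 3 and with a background offset of 50 (limma adjusted p up to 0.0843). ITGA4 (0.18), ITGAE (-0.53) and ITGB2 (-0.34) did not pass; they were named after their values were seen. Of 4 leukocyte markers on the array, PTPRC and CD3E were above background on no array. LYZ, lysozyme, was above background on 2 of 3 shTCF7L1 arrays and 0 of 3 shCtrl arrays. CD14, a marker of myeloid cells, was above background on 2 of 3 shTCF7L1 arrays and 1 of 3 shCtrl arrays, and passed the detection filter with normalized log2 levels of 4.99 ± 0.21 in shTCF7L1 and 4.58 ± 0.50 in shCtrl (SD, n = 3 each); the log2 difference of 0.41 did not pass (limma adjusted p = 0.274), and the part of these markers in the ITGAX result was not tested. The 4 markers summed to a bead signal of 280 to 292 in shTCF7L1 and 237 to 274 in shCtrl.

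Proteins that act on the cytoplasmic side of integrins moved in both directions. Of 48 listed, 38 were tested, of which 6 rose and 4 fell, while 28 missed the threshold; 15% of all genes were called in either direction. The median log2 difference was 0.26. TNS3, a tensin that binds beta tails, rose 2.05-fold (log2 1.04, SE 0.24, limma adjusted p = 0.00893). PARVB, a parvin of the complex with integrin-linked kinase, rose 1.89-fold (SE 0.28 on the log2 scale, limma adjusted p = 0.0334), from a probe above background on 3 of 3 shTCF7L1 and 2 of 3 shCtrl arrays. ACTN4, an actin-crosslinking alpha-actinin, rose 1.77-fold (SE 0.20 on the log2 scale, limma adjusted p = 0.0103).

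SNX17, a sorting nexin that binds beta tails in endosomes and returns integrins to the surface, was the cytoplasmic gene with the greatest change. It had log2 levels of 6.88, 7.22 and 6.62 in shTCF7L1 and 8.29, 8.45 and 8.40 in shCtrl. The decrease was 2.78-fold (log2 -1.47, SE 0.21, limma adjusted p = 0.000294). The other 3 that fell, named after their values were seen, were FERMT2, which encodes the integrin activator kindlin-2 (-0.66, SE 0.20), PTK2, which encodes focal adhesion kinase (-0.63, SE 0.20), and RAB21, a small GTPase of integrin uptake (-0.65, SE 0.21). Their limma adjusted p, in that order, were 0.0349, 0.0470 and 0.0470, and PTK2 is given from the brighter of 2 probes. The other 3 that rose, likewise named after their values were seen, were SRC, a kinase that works with focal adhesion kinase (0.65, SE 0.21), ACTN1 (0.68, SE 0.19) and KANK1 (0.72, SE 0.22). For these the limma adjusted p were 0.0494, 0.0233 and 0.0338. With 1 array left out, whichever it was, between 3 and 6 of the list passed in place of 10. SNX17 and ACTN4 passed in each of these fits, TNS3 in 5 of 6 (adjusted p = 0.0507 in limma without shTCF7L1 replicate 2) and PARVB in 1 of 6. Without a detection filter, TNS3 (limma adjusted p = 0.0660) and PARVB (limma adjusted p = 0.186) did not pass.

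Of 13 membrane and hemidesmosome partners, 11 were tested: 3 rose, 1 fell and 7 missed the threshold, where 7.85% of all genes were called higher and 7.11% lower. Their median was 0.36, against 0.02 over all genes. CD47, a surface protein that associates with ITGAV and other integrins, rose 1.67-fold (log2 0.74, SE 0.20, limma adjusted p = 0.0180), while its other probe gave 0.14. The CD47 call ended without shCtrl replicate 1 or 2 or shTCF7L1 replicate 3 (limma adjusted p of 0.0528 to 0.0648). BSG, a surface glycoprotein found with ITGB1, rose 1.53-fold (SE 0.20 on the log2 scale, limma adjusted p = 0.0485), a call lost in each of the 6 fits without an array (limma adjusted p up to 0.159). DST, a plakin of the hemidesmosome, was well above background on no shCtrl array and rose at least 1.34-fold (limma adjusted p = 0.0312). DST passed the detection filter only through its shTCF7L1 arrays, a selection for which its p does not allow. The DST call held in 9 of 16 alternatives and in 2 of the 6 fits without an array, and it ended with a background offset of 50 (limma adjusted p = 0.122) and with no background correction (limma adjusted p = 0.0529). CD9, a tetraspanin that associates with laminin-binding integrins, fell by 0.86 on the log2 scale (SE 0.21, limma adjusted p = 0.0126), while its other probe gave -0.23. Without shTCF7L1 replicate 1 CD9 did not pass (limma adjusted p = 0.0606). With the mean of probes neither CD47 (limma adjusted p = 0.0934) nor CD9 (limma adjusted p = 0.0512) passed. In the fits without an array, 1 to 3 of the list passed in place of 4.

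Of 34 listed ligands of integrins, 19 were tested: 8 rose in shTCF7L1, 1 fell and 10 missed the threshold, where 7.85% of all genes were called higher and 7.11% lower. Their median was 0.53, against 0.02 over all genes. The 8 include the laminin chain LAMA4, which passed the detection filter only through its shTCF7L1 arrays. COL4A5, a basement membrane collagen chain, had log2 levels of 9.22, 9.12 and 9.32 in shTCF7L1 and 7.59, 7.34 and 7.97 in shCtrl. It rose 3.00-fold (log2 1.59, SE 0.21, limma adjusted p = 0.000198), and its other probe gave 1.53. The matrix protein CCN1 rose 2.42-fold (SE 0.22 on the log2 scale, limma adjusted p = 0.00146). MFGE8, a secreted RGD protein bound by ITGAV pairs, rose 2.23-fold (SE 0.20 on the log2 scale, limma adjusted p = 0.00151). COL1A1, a chain of type I collagen, rose 2.20-fold (SE 0.28 on the log2 scale, limma adjusted p = 0.0116), a call that ended without shCtrl replicate 1 or shTCF7L1 replicate 1 (limma adjusted p = 0.0609 and 0.0652), or without a detection filter (limma adjusted p = 0.111).

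Of 8 laminin chains tested, 3 rose, 0 fell and 5 did not pass, where 7.85% of all genes were called higher and 7.11% lower. The 5 had log2 differences of -0.35 (LAMA2, the brighter of 2 probes) to 0.53 (LAMC3). Laminins are the ligands of ITGA3 and ITGA6. LAMB1 (0.91, SE 0.22, the brighter of 2 probes) and LAMC1 (0.92, SE 0.23) rose. LAMA4 rose at least 1.40-fold from a level not well above background in shCtrl. LAMA4 passed the detection filter only through its shTCF7L1 arrays, a selection for which its call does not allow. SPP1, osteopontin, an RGD ligand of ITGAV pairs, was the ligand that fell (-1.10, SE 0.21, limma adjusted p = 0.00328, the brighter of 2 probes). Its log2 levels in shTCF7L1, 4.59, 4.88 and 4.94, were near background. COL4A6, another basement membrane collagen chain, rose by 0.73 (SE 0.21), from shCtrl levels of 4.38, 4.97 and 4.60 that were likewise near background. The laminins, COL4A6 and SPP1 were named after their values were seen. In the fits without an array, 5 to 8 of the ligands passed in place of 9, with 5 when shTCF7L1 replicate 2 was left out. With detection required on all 6 arrays, 6 ligands passed. Of 5 fibroblast markers COL1A1 was above background on every array and COL1A2 and LUM on none. COL3A1 and DCN were each above background on 1 of 3 shTCF7L1 and 0 of 3 shCtrl arrays. The 5 summed to a bead signal of 339 to 445 in shTCF7L1 and 293 to 337 in shCtrl. That sum includes COL1A1, itself a called ligand, and the part of these markers in the result was not tested. In these bulk samples fewer cells of a kind and less RNA per cell cannot be told apart.

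**Figure D4:**
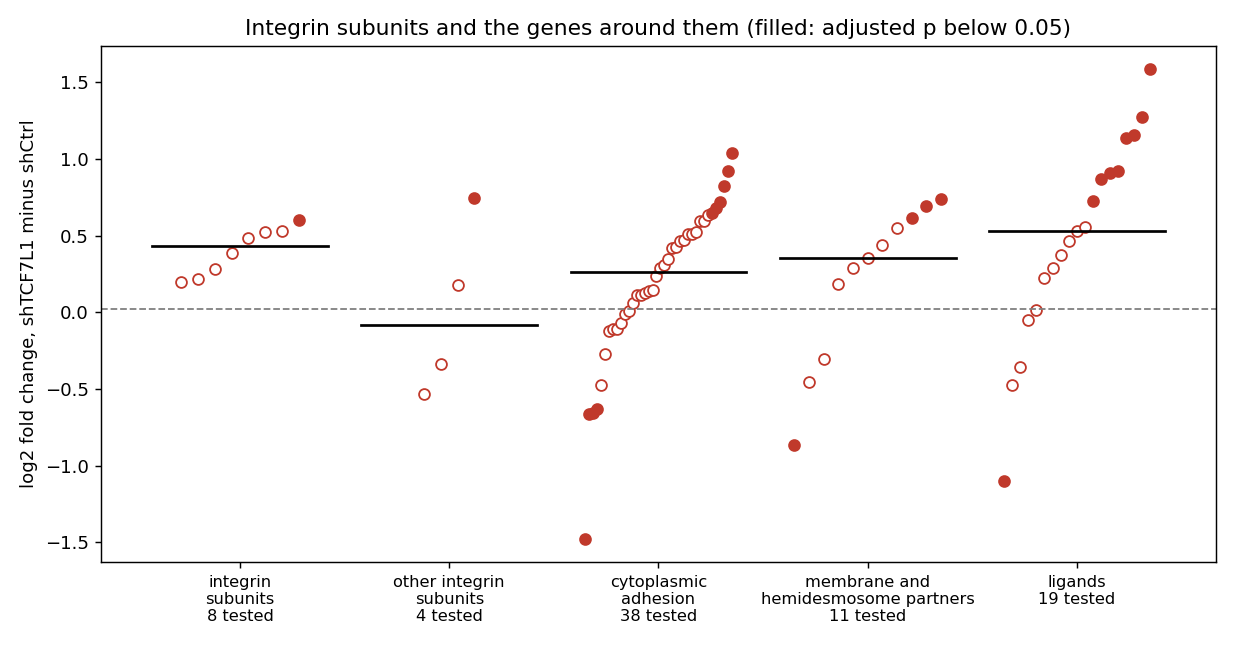
Log2 fold change (shTCF7L1 minus shCtrl, vertical axis) of each tested integrin subunit and of the tested genes of 4 lists around them, each point a gene, sorted within its list; filled points passed at an adjusted p below 0.05. Black bars are list medians (0.44, -0.08, 0.26, 0.36 and 0.53 from left to right) and the dashed line is the median of all genes, 0.02. Of the filled points, ITGAX, DST and LAMA4 passed the detection filter only through their shTCF7L1 arrays.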

How the data were processed

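Total RNA of 6 HCT116 samples was labelled and hybridised to Illumina arrays, per the labels. The deposited table held 47225 probes with a bead intensity on a linear scale and a detection p-value per array, per the file headers; GenomeStudio version 2011.1 made them, per the submitters' processing notes, and no source used here gives its settings. A second deposited table, the authors' processed intensity, was a straight-line function of the first with each array at a mean of 145.7, not logged; it served as an alternative, as log2 after adding 16.

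The neqc function of limma (version 3.58.1, R version 4.3.3) corrected intensities by normexp with an offset of 16, quantile normalized them and took log2. Probes with detection p below 0.01 on at least 3 of the 6 arrays were kept (16835). A gene took its brightest kept probe, giving 10470 of 20043 named genes; 17107 probes had no listed gene and 8 had several. Symbols were updated through Entrez identifiers with RefSeq (GRCh38.p14). Listed genes outside the tested ones were not analysed here. The comparison of groups used lmFit and eBayes, 2-sided, without a block, and adjusted with Benjamini-Hochberg over all genes or all probes. The number of arrays limits the precision.

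Samples were grouped by the hairpin in their labels. The integrin subunits and gene lists were chosen with earlier results of these data known. Genes named are the 10 subunits, TCF7L1, the 3 genes most like the subunit of greatest called change, and up to 4 called genes of greatest change per list; others are said to be named after their values were seen. Alternatives covered scaling, background, detection filter, variance model, array weights, probe choice, replicate block and leaving out each array.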

Additional observations from a re-analysis of the deposited data

How the results depend on the processing

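Of the 8 tested integrin subunits, all log2 differences stayed above 0 in each of the 17 alternatives, and 0 subunits were lower at an unadjusted p below 0.05 in any limma fit. ITGA6 passed in 9 of the 17 (adjusted p 0.0202 to 0.121) and its log2 difference ranged from 0.45 with a background offset of 50 to 0.72 with the authors' processed values. The count of subunits higher, 1, was 2 with the authors' processed values (ITGA5 and ITGA6) and 0 with the mean of probes, with the replicate block, and without any single array (0 in all 6 limma fits, with 2 to 4 subunits at an unadjusted p below 0.05). The count of integrin probes, 1, was 2 with median scaling, 3 with the authors' processed values, 0 with detection on at least 1 array, 0 with the replicate block and 0 without any single array (2 to 6 at an unadjusted p below 0.05). The shares of all genes and of all probes at that unadjusted level were not computed for the fits without an array. The unadjusted counts of those fits thus have no background and nothing is concluded from them. The deviations of same-numbered replicates from their group means correlated at -0.011 to -0.0058. This shows no shared deviation in level, but not whether same-numbered samples were handled together, which the labels do not say. Under the replicate block ITGA6 had an adjusted p of 0.0629 in limma. All genes changed numbered 1566, and 1007 to 1156 without any single array. The other integrin subunits changed, 1, were 0 with a background offset of 50, 0 with detection on all 6 arrays, 2 with detection on at least 1 array and 0 to 1 without any single array. Without a detection filter 4 cytoplasmic proteins and 5 ligands passed, and with the mean of probes 2 membrane partners. Without any single array the counts were 3 to 6, 5 to 8 and 1 to 3 in that order. The calls over all genes moved too, to 1115 of 20043 genes without a detection filter and 1731 of 10470 with the mean of probes. The authors' processed values moved the median of all genes to 0.10 and gave 1140 higher and 549 lower calls (67.5% higher), against 822 and 744 (52.5% higher) here; the median of the subunits lay 0.44 above that of all genes there and 0.42 here. The cause of these changes was not tested, except that leaving out an array leaves fewer samples. Signal over background limits ITGB6 and ITGB8, whose probes gave no level.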
